A study of Mus musculus with 7 samples.

Results

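The contractile actin cytoskeleton and the genes driven by the transcription factors SRF and YAP were followed in keratinocytes, the epithelial cells of the epidermis, in primary culture from mice. The set was a list of 43 genes for actins, myosin II, actin-binding and focal adhesion proteins, GTPases and known SRF and YAP genes, taken by name. It was chosen with earlier results of these data known. On the array 42 of the 43 had a probe set annotated with that gene alone, among 12393 genes measured, and each was read at its probe set of highest mean. Myh10, a heavy chain of non-muscle myosin II, was not analysed here. RNA had been taken from 5 samples given small interfering RNA (siRNA) against Trp63 (replicates 1, 2, 3, 4 and 7) and 2 samples given a non-specific control siRNA (replicates 5 and 6), all 48 h after a transient transfection that both groups underwent. Each sample was hybridised to 1 Affymetrix array. Strain, age, sex and whether replicates were separate cultures are not given in the sources used here, so the p-values speak of the spread among these 7 samples alone, and that spread may be technical. The question asked was how loss of p63, the transcription factor encoded by Trp63, alters the messenger RNA of these cells.

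Non-muscle cells contract through bundles of actin filaments and myosin II that end in focal adhesions, the sites where integrins hold the matrix. Monomeric actin binds and retains the MRTF coactivators of SRF, so that assembly of filaments releases them to act at CArG boxes, the DNA element that SRF recognises in many actin and actin-binding genes. YAP and its relative TAZ (Wwtr1) act through TEAD factors, respond to cell tension and density, and share targets such as Ccn1 and Ccn2 with SRF. In keratinocytes these systems are known for roles in adhesion, spreading, migration and the choice between growth and differentiation.

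Trp63 itself had intensities of 541, 519, 457, 504 and 492 in the Trp63 siRNA arrays, against 1447 and 1683 in the control siRNA arrays. It was lower in every silenced array (log2 difference -1.61 ± 0.088 SE, limma's adjusted p = 1.0e-05). Of the 12 keratinocyte markers, led by Krt14, 11 were above the array median and Krt15 was below it. With Trp63 siRNA 11 of the 12, the silenced Trp63 itself among them, were lower, while Cdh1, for E-cadherin, was higher. At limma's adjusted p under 0.05, 8.57% of all genes were lower and 8.03% higher. The summed intensity of the 12 markers was 52462 to 56962 in silenced arrays and 70346 to 73820 in controls. In bulk RNA, fewer cells of a type and less RNA per cell cannot be told apart. Array medians lay between 207 and 214, and the number of arrays limits the precision of every value.

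Genes of the contractile apparatus were mostly higher with Trp63 siRNA or did not pass, and few read lower. Of the 42 measured members, 20 were higher with Trp63 siRNA, 1 was lower and 21 did not pass limma's test at a threshold of 0.05 on the adjusted p (Benjamini-Hochberg) over all 22626 probe sets. Differences here and below are Trp63 siRNA minus control siRNA on the scale of log2(intensity + 16). Over all 12393 genes 8.03% were higher and 8.57% lower by the same rule. Since the list was chosen with earlier results of these data known, this contrast is not an independent test. The median log2 difference of the members was 0.25, against -0.041 over all genes. The members were bright, with a median intensity of 2111 against 254 over all genes. Of the 39 members at or above the median gene level, 20 rose and 1 fell, where 12.4% of all genes at or above that level rose and 11.2% fell. Brightness was matched only in part, since the median intensity was 2319 for these members and 615 for those genes. A total of 25 members read higher in all 5 silenced arrays than in both controls, as did 14.3% of all genes, and 2 read lower in all 5, as did 24.0% of all genes. A rise of at least 0.5 on the log2 scale that also passed the test was seen for 10 members, against 3.49% of genes, and the lowest member stood at -0.24, while 2.17% of genes passed with a fall of at least 0.5. A readout of RNA integrity moved with the groups. The 3′ minus 5′ log2 difference of the array's beta-actin control probe sets was 0.186 to 0.317 in the silenced arrays, against 0.381 and 0.439 in the controls (exact two-sided permutation p = 0.0476, the smallest that 21 splits can give), and that of Gapdh was -0.144 to -0.092 in the silenced arrays, against -0.025 and -0.029 in the controls (the same p), and its part in the members' rise was not tested. Without control siRNA replicate 6 the count that rose was 10, and without control siRNA replicate 5 it was 16.

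**Figure D1:**
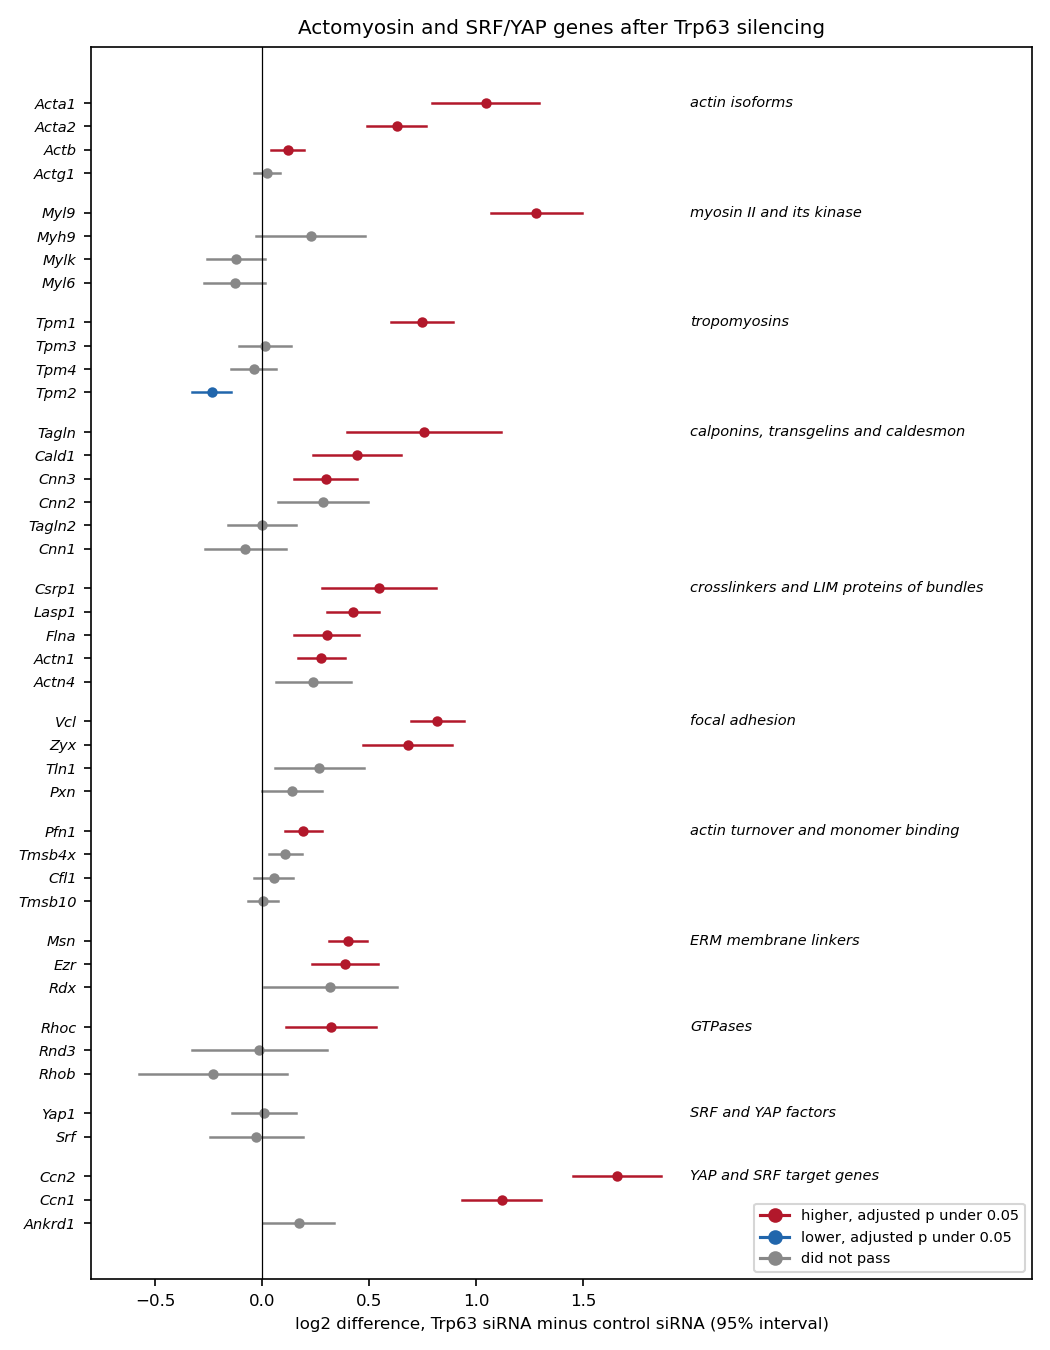
Log2 difference (x axis, Trp63 siRNA minus control siRNA) of each of the 42 measured members, grouped by role down the y axis. Points are limma estimates from 5 and 2 arrays, lines are 95% confidence intervals, and colour marks the 20 genes that were higher, the 1 that was lower (Tpm2) and the 21 that did not pass.

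The promoters of Acta1, Myl9, Vcl, Actg1, Srf and Ccn1 are shown because they carry, or lack, the elements read by SRF and TEAD beside genes that did and did not move. The windows run from 250 bases before to 50 bases after the annotated start in RefSeq on GRCm38.p6, a table that matched 38 of the 42 measured members by symbol. Capitals mark each CArG box, searched as CC, then only A or T, then GG, 10 bases in all, and each TEAD core. The CArG pattern is the same on both strands, and elements that depart from it were neither marked nor counted. The TEAD core was searched as GGAATG on both strands and so also as CATTCC. No CArG box overlapped a TEAD core in these windows.
Acta1, chr8:123894726-123895025, minus strand: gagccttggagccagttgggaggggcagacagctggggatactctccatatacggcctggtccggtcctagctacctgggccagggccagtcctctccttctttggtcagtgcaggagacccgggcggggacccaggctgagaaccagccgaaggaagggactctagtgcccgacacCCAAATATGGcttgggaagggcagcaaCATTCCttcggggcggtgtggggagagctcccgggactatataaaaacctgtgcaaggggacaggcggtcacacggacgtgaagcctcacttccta
Myl9, chr2:156775214-156775513, plus strand: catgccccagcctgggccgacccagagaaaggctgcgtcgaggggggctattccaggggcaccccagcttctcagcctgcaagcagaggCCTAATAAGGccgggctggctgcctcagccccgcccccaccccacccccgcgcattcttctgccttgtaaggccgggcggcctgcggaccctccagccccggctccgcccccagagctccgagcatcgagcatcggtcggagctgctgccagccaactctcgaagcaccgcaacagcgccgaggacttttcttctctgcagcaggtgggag
Vcl, chr14:20929148-20929447, plus strand: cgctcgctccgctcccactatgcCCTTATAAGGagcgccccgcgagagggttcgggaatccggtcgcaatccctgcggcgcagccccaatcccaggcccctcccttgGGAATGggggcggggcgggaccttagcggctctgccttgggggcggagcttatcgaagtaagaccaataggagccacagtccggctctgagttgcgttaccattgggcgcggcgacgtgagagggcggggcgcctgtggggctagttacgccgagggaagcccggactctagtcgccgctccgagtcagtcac
Actg1, chr11:120348446-120348745, minus strand: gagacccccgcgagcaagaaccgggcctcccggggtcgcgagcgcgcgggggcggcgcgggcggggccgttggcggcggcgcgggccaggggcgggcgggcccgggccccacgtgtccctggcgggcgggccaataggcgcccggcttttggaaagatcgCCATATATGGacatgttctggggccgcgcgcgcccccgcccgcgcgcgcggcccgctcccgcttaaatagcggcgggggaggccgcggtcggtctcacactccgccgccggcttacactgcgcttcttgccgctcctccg
Srf, chr17:46556113-46556412, minus strand: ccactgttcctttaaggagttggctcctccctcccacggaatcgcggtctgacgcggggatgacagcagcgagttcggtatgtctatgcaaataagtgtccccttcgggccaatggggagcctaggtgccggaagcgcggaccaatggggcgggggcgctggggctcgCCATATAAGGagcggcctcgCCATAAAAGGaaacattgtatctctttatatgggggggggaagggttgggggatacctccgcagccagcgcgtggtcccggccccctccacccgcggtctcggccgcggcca
Ccn1, chr3:145649936-145650235, minus strand: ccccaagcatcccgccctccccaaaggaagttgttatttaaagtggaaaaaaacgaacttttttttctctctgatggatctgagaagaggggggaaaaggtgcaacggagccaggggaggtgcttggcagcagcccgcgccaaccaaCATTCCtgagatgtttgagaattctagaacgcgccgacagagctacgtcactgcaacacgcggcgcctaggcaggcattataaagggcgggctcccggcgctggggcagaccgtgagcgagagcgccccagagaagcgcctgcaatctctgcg

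A CArG box lay in 8 of the 45 windows of measured members (17.8%), against 1.63% of all 32851 windows. The list had been drawn up from known SRF genes, so this share is not independent of how it was chosen. By gene, 3 of the 17 members that rose and had a window held a CArG box (Acta1, Myl9 and Vcl), as did 5 of the 21 that did not rise (Actg1, Cnn2, Myl6, Rnd3 and Srf). The counts leave out Actb, Ccn2, Tagln and Pxn, of which the first 3 rose. The boxes began 73 bases before the start of Acta1, 161 before that of Myl9 and 227 before that of Vcl, and Srf held 2 of them at 82 and 62 bases before its start. A TEAD core lay in 28.9% of the members' windows and 14.7% of all windows. It was found in 8 of the 17 members that rose, namely Acta1, Acta2, Cald1, Ccn1, Flna, Pfn1, Tpm1 and Vcl, and in 5 of the 21 that did not, namely Actn4, Ankrd1, Mylk, Tagln2 and Yap1. These are matches of letters in a short window and not sites shown to be bound.

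Among the actins, the muscle isoforms moved most. Acta1, the skeletal muscle actin, read 526, 514, 675, 544 and 560.0 in the Trp63 siRNA arrays, against 284 and 245 in the control siRNA arrays. All silenced arrays exceeded both controls, with a 2.06-fold rise (log2 difference 1.04 ± 0.11 SE, limma's adjusted p = 0.000355). Acta2, the smooth muscle actin, read 4072, 3914, 4232, 4157 and 4191 in the Trp63 siRNA arrays, against 2863 and 2459 in the control siRNA arrays. The groups again did not overlap, and the rise was 1.55-fold (log2 difference 0.63 ± 0.061 SE, limma's adjusted p = 0.000222). This probe set is of the kind that can match several transcripts, and the other Acta2 probe set was dim and alike in both groups (107 with Trp63 siRNA and 108 with control siRNA), and a share of other actins in the bright signal was not tested. Actg2, the enteric smooth muscle actin and no member of the list, was also higher (302 with Trp63 siRNA and 195 with control siRNA, log2 difference 0.60 ± 0.081 SE, limma's adjusted p = 0.0014).

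The cytoplasmic actins, which form most of the filaments of an epithelial cell, were near the top of the intensity range and moved little. Actb averaged 12432 ± 430.0 with Trp63 siRNA and 11445 ± 207 with control siRNA (SD, n = 5 and 2), a log2 difference of 0.12 (limma's adjusted p = 0.0433) that lost its call under 8 of the 17 alternatives tried, quantile normalization and each control left out among them (0.252 without replicate 5 and 0.124 without replicate 6). A dimmer Actb probe set was lower with Trp63 siRNA (644 with Trp63 siRNA and 846 with control siRNA, log2 difference -0.39, limma's adjusted p = 0.0184), and the mean of the 2 probe sets reversed the sign to -0.13. Both calls stand beside the 3′ minus 5′ shift of the beta-actin control probe sets given above. The 5′, middle and 3′ beta-actin control probe sets differed on the log2 scale by 0.29, 0.25 and 0.13 between the groups, and the part of this shift in the Actb result was not tested. Actg1 had a log2 difference of 0.023 (95% interval -0.040 to 0.085) and did not pass, and its promoter window holds a CArG box.

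Myosin II showed a rise of a regulatory light chain without a passing change of the heavy chain. Myl9, a regulatory light chain whose phosphorylation switches the motor on, read 877, 902, 806, 785 and 824 in the Trp63 siRNA arrays, against 372 and 302 in the control siRNA arrays. The lowest silenced array lay far above the higher control, and the change of 2.43-fold (log2 difference 1.28 ± 0.094 SE, limma's adjusted p = 5.2e-05) was among the largest of the members. Myh9, the main non-muscle heavy chain, averaged 3014 ± 365 with Trp63 siRNA and 2561 ± 197 with control siRNA (SD, n = 5 and 2) and overlapped between groups (log2 difference 0.23, limma's adjusted p = 0.211). It passed without silenced replicate 1 (limma's adjusted p = 0.0138), the lowest silenced array at this probe set. At the other Myh9 probe sets replicate 1 was the highest silenced array, and none of the 4 passed with all arrays. Mylk, the kinase of the light chain, was dim at 147 with Trp63 siRNA and 161 with control siRNA and did not pass (limma's adjusted p = 0.211). Myl6, the essential light chain, did not pass at its own dim probe set, where every silenced array read below both controls (log2 difference -0.13, limma's adjusted p = 0.208), nor at the bright probe sets that it shares with the predicted genes Gm8894 and Gm5526 (log2 differences 0.11 and 0.017, limma's adjusted p = 0.108 and 0.814).

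**Figure D2:**
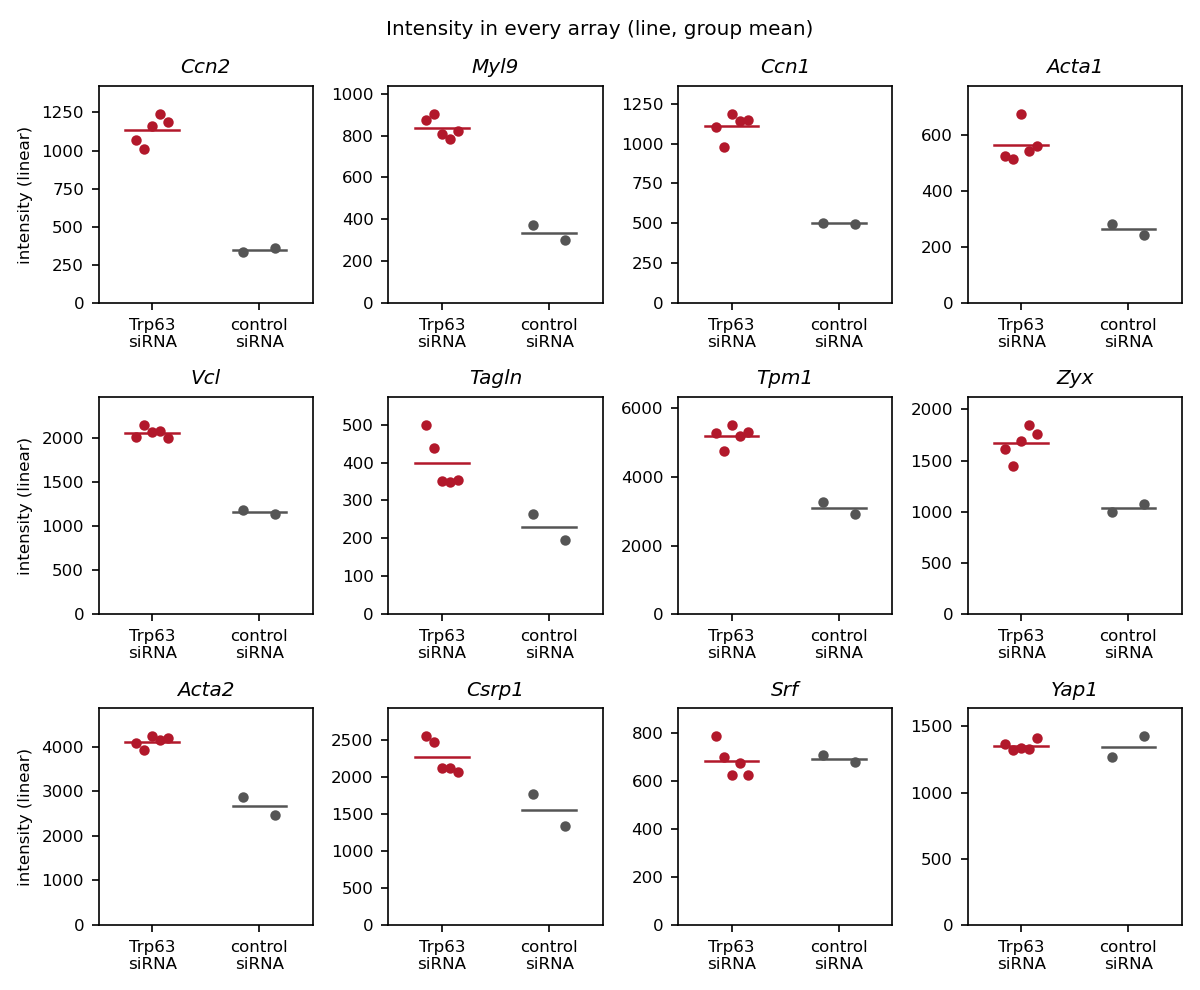
Intensity on a linear y axis from 0 in each of the 5 Trp63 siRNA arrays (red) and 2 control siRNA arrays (grey) for the 10 members that passed with a log2 difference of at least 0.5, and for Srf and Yap1, with lines at the group means. The groups do not overlap in the 10 panels of risen genes and do overlap for Srf and Yap1.

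Tropomyosins, which coat actin filaments and set which myosins and severing proteins reach them, moved in both directions. Tpm1 read 5298, 4746, 5509, 5188 and 5302 in the Trp63 siRNA arrays, against 3275 and 2915 in the control siRNA arrays. It rose 1.68-fold without overlap (log2 difference 0.75 ± 0.064 SE, limma's adjusted p = 0.000111), and a second bright probe set gave a log2 difference of 0.57. Tpm2 was the only member that fell: it read 3932, 3676, 3727, 3854 and 3748 in the Trp63 siRNA arrays, against 4483 and 4443 in the control siRNA arrays. The difference was small beside that of Tpm1 (log2 difference -0.24 ± 0.040 SE, limma's adjusted p = 0.00444), and 3 of its 4 probe sets passed in the same direction. Both calls held under all 17 alternatives tried. Tpm3 and Tpm4 had log2 differences of 0.012 (95% interval -0.11 to 0.13) and -0.039 (-0.14 to 0.066) and did not pass.

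Of the calponin family and caldesmon, which bind actin filaments and in smooth muscle restrain myosin, 3 of 6 rose. By the same test 8.03% of all genes rose, and 12.4% of those at or above the median level. Tagln, the actin-binding protein SM22 and a classical SRF target, read 498, 437, 351, 349 and 355 in the Trp63 siRNA arrays, against 265 and 194 in the control siRNA arrays. Silenced replicates 1 and 2 were the highest and no array overlapped (1.69-fold, log2 difference 0.76 ± 0.16 SE, limma's adjusted p = 0.0124), but the call was lost without control replicate 6 (limma's adjusted p = 0.142). Cald1, for caldesmon, had a log2 difference of 0.44 at its brightest probe set (limma's adjusted p = 0.0112) and of 0.60 and 0.76 at the other 2, all of which passed, and the first lost its call without either control. Cnn3, a calponin of non-muscle cells, rose by less (log2 difference 0.30, limma's adjusted p = 0.0147). Of its 6 probe sets 2 passed, and the call was lost without control replicate 6. Cnn2, a further non-muscle calponin, read higher in all 5 silenced arrays but missed the threshold (log2 difference 0.28, limma's adjusted p = 0.0723). The smooth muscle calponin Cnn1 was dim, at 217 with Trp63 siRNA and 230.3 with control siRNA, and did not pass (log2 difference -0.079). Tagln2, the transgelin of non-muscle cells, averaged 2588 with Trp63 siRNA and 2587 with control siRNA, a log2 difference of -0.0021 (95% interval -0.16 to 0.16) whose sign turned with median centring.

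All 5 genes for proteins that link or organise filament bundles read higher in all 5 silenced arrays, and 4 of 5 passed. Of all genes, 14.3% read higher in all 5 silenced arrays and 8.03% passed as higher. At or above the median level 12.4% passed as higher. Csrp1, a LIM protein of actin bundles, read 2549, 2468, 2126, 2123 and 2071 in the Trp63 siRNA arrays, against 1769 and 1344 in the control siRNA arrays. It rose 1.46-fold (log2 difference 0.55 ± 0.12 SE, limma's adjusted p = 0.014) and lost its call without control replicate 6 (limma's adjusted p = 0.146). Lasp1, a LIM and SH3 protein at filament ends and adhesions, rose by a log2 difference of 0.42 (limma's adjusted p = 0.00101). It kept its call under all 17 alternatives, but only 5 of its 9 probe sets passed. The next 2 in brightness had log2 differences of 0.17 and 0.18 and did not pass (limma's adjusted p = 0.0885 and 0.0813). A further 2, both dim, read slightly lower and did not pass. The crosslinker genes Flna, for filamin A, and Actn1, for alpha-actinin, rose by 0.30 and 0.28 on the log2 scale (limma's adjusted p = 0.0156 and 0.00508) and lost their calls without control replicate 6 (0.111 and 0.0684), as Flna did without control replicate 5 (0.0868). Actn4, a second alpha-actinin gene, had a log2 difference of 0.24 and missed the threshold (limma's adjusted p = 0.0671).

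At focal adhesions, Vcl and Zyx rose. Vcl, for vinculin, which ties talin to actin under tension, read 2004, 2142, 2063, 2078 and 1996 in the Trp63 siRNA arrays, against 1184 and 1132 in the control siRNA arrays. The spread within each group was small beside the gap between them (1.76-fold, log2 difference 0.82 ± 0.056 SE, limma's adjusted p = 3.6e-05), and its dim second probe set gave a log2 difference of 0.85. Zyx, for zyxin, a LIM protein recruited to strained filaments, read 1616, 1448, 1687, 1844 and 1763 in the Trp63 siRNA arrays, against 995 and 1072 in the control siRNA arrays. It rose 1.60-fold without overlap (log2 difference 0.68 ± 0.092 SE, limma's adjusted p = 0.00136), and its other probe set gave nearly the same log2 difference (0.69). Tln1, for the integrin activator talin, and Pxn, for the scaffold paxillin, read higher in all 5 silenced arrays by 0.27 and 0.14 on the log2 scale, and did not pass (limma's adjusted p = 0.0807 and 0.163). A dim Pxn probe set passed as higher (log2 difference 0.27, limma's adjusted p = 0.0407), while another did not pass (log2 difference 0.040). The rises of Vcl and Zyx kept their calls under all 17 alternatives.

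Genes for actin turnover and monomer binding were among the brightest on the array and differed little. Pfn1, for profilin, which feeds monomers to growing filaments, rose by 0.19 on the log2 scale (1.14-fold, limma's adjusted p = 0.009, and 0.100 without control replicate 6). Tmsb4x, a monomer-sequestering thymosin, averaged 11401 ± 398 with Trp63 siRNA and 10579 ± 103 with control siRNA (SD, n = 5 and 2) and missed the threshold (log2 difference 0.11, limma's adjusted p = 0.0642). Cfl1, for the severing protein cofilin, had a log2 difference of 0.053 (95% interval -0.038 to 0.14) and did not pass. Tmsb10, a second thymosin, had one of 0.0034 (-0.068 to 0.075), whose sign turned with quantile normalization, and did not pass either. Of its 5 probe sets 1, a dim one, passed as lower (log2 difference -0.14, limma's adjusted p = 0.0449).

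The ERM proteins, which tie filaments to the plasma membrane, all read higher on average. Msn, for moesin, averaged 3699 ± 63.3 with Trp63 siRNA and 2799 ± 26.4 with control siRNA (SD, n = 5 and 2) with no overlap (log2 difference 0.40 ± 0.039 SE, limma's adjusted p = 0.00024), and its dimmer probe set showed a larger log2 difference of 0.89 (1941 with Trp63 siRNA and 1032 with control siRNA). Ezr, for ezrin, rose by 0.39 on the log2 scale (limma's adjusted p = 0.00536). It lost its call without control replicate 6 and with the mean of its probe sets. Its other probe set did not pass (log2 difference 0.14, limma's adjusted p = 0.352). Rdx, for radixin, had a log2 difference of 0.32 with overlap and did not pass (limma's adjusted p = 0.153), its silenced replicate 1 reading 891 against 1157 to 1302 in the other silenced arrays.

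Of the 3 GTPase genes, Rhoc rose by 0.32 on the log2 scale at its brightest probe set, just past the threshold (limma's adjusted p = 0.0476, and 0.287 without control replicate 6; lost under 7 of 17 alternatives), and by 0.49 at the other (limma's adjusted p = 0.0103). Rhob, an immediate early gene, averaged 1232 ± 199.7 with Trp63 siRNA and 1441 ± 229.7 with control siRNA (SD, n = 5 and 2) and did not pass (log2 difference -0.23, limma's adjusted p = 0.347). Rnd3 had a log2 difference of -0.012 (95% interval -0.33 to 0.31) whose sign turned with median centring. Both overlapped between the groups.

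The factors themselves showed no passing change of messenger RNA, while their best known shared targets did. Srf read 787, 699, 625, 675 and 626 in the Trp63 siRNA arrays, against 708 and 679 in the control siRNA arrays. Its groups overlapped, and the log2 difference was -0.027 (95% interval -0.24 to 0.19, limma's adjusted p = 0.878). Yap1 read 1368, 1322, 1335, 1331 and 1411 in the Trp63 siRNA arrays, against 1267 and 1425 in the control siRNA arrays. Here too the groups overlapped (log2 difference 0.0099, 95% interval -0.14 to 0.16, limma's adjusted p = 0.937). Ccn2, a secreted matricellular protein, read 1069, 1009, 1161, 1238 and 1190.0 in the Trp63 siRNA arrays, against 334 and 361 in the control siRNA arrays. It had the largest difference of all members, 3.16-fold (log2 difference 1.66 ± 0.090 SE, limma's adjusted p = 1.0e-05). Ccn1, its close relative, read 1101, 981, 1184, 1139 and 1150.0 in the Trp63 siRNA arrays, against 505 and 497 in the control siRNA arrays. The rise was 2.17-fold (log2 difference 1.12 ± 0.082 SE, limma's adjusted p = 5.2e-05), its second probe set gave a log2 difference of 1.13, and both genes kept their calls under all 17 alternatives. Ankrd1, a further target of YAP, was dim, at 133 with Trp63 siRNA and 116 with control siRNA, and did not pass at its brighter probe set (log2 difference 0.17, limma's adjusted p = 0.155), whereas the dimmer one did (log2 difference 0.28, limma's adjusted p = 0.0202).

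Where several probe sets reported the same member, they mostly told the same direction. The 42 members had 97 probe sets, of which 37 were higher, 5 were lower and 55 did not pass. Of all 22626 probe sets, 1771 were higher and 1847 lower. Of the 28 members with more than 1 probe set, only Actb had calls in both directions. Probe sets of 1 gene share its transcripts and are not replicates.

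**Figure D3:**
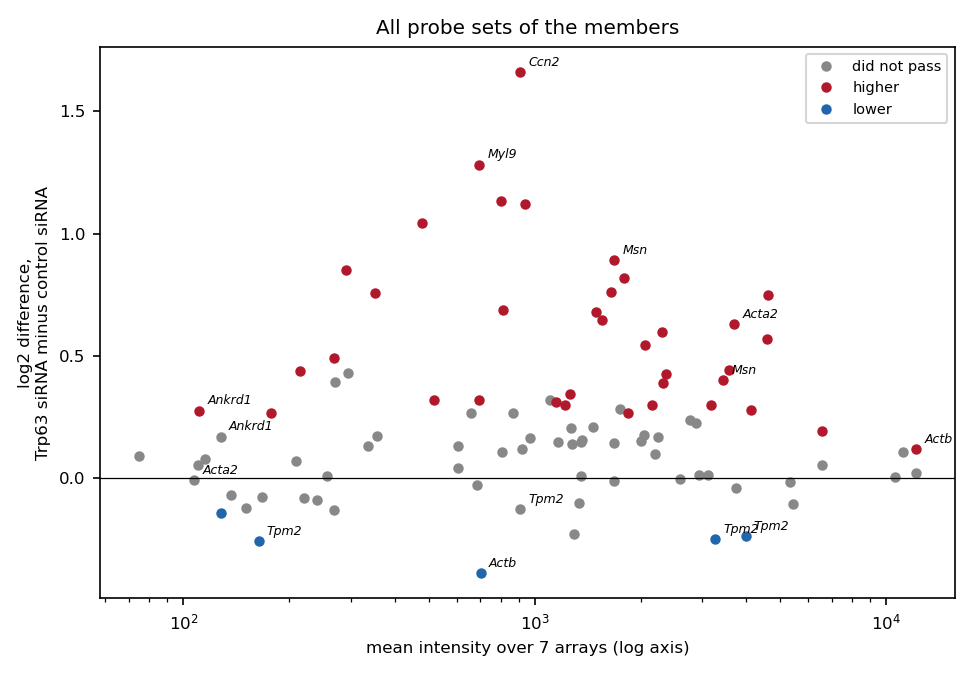
Log2 difference (y axis, Trp63 siRNA minus control siRNA) of all 97 probe sets of the members against their mean intensity over 7 arrays (x axis, log scale), coloured by limma call. The 37 higher probe sets lie over nearly the whole range of intensity, and the brightest, such as that of Actb, differ little.

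Other genes of the same processes, taken from 5 lists, were less uniform. Among 20 further focal adhesion genes, 4 were higher (20%), 2 were lower (10%) and 14 did not pass. Over all genes 8.03% were higher and 8.57% lower, and at or above the median level 12.4% and 11.2%. The median log2 difference was 0.10. Fermt2, for the integrin activator kindlin-2, rose 2.05-fold (494 with Trp63 siRNA and 234 with control siRNA, log2 difference 1.04 ± 0.11 SE, limma's adjusted p = 0.00035). Bcar1, for the adhesion scaffold p130Cas, and Pdlim7, for a LIM protein of stress fibres, rose by 0.50 and 0.43 on the log2 scale. Pdlim1, for a LIM protein that binds alpha-actinin, and Tns1, for tensin, fell by 0.54 and 0.24 on the log2 scale, and neither passed without control replicate 6.

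Genes of actin assembly passed in both directions, as did genes at large. Of 29 measured, 4 rose (13.8%), 5 fell (17.2%) and 20 did not pass. Of all genes at or above the median level, 12.4% were higher and 11.2% lower. The median log2 difference of the list was -0.016. Enah, which lengthens filaments at adhesions and leading edges, fell to 1399.6 with Trp63 siRNA, against 2661 with control siRNA (log2 difference -0.92 ± 0.071 SE, limma's adjusted p = 6.2e-05). Arpc2 and Arpc1a, subunits of the branching Arp2/3 complex, fell by 0.34 and 0.42 on the log2 scale. Pfn2, a profilin, Cttn, for cortactin, and Cap1 rose by 0.57, 0.23 and 0.22 on the log2 scale. Without control replicate 5, and likewise without control replicate 6, 1 rose and 3 fell.

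Further genes tied to SRF and MRTF mostly did not pass. Of 23 measured, 2 rose (8.70%), 1 fell (4.35%) and 20 did not pass, where 8.03% of all genes were higher and 8.57% lower. The median log2 difference was -0.0096. The risen genes were Pdlim7 and Fhl1, for a LIM protein of muscle (0.43 on the log2 scale), and the fallen one was Lima1, for the actin bundler EPLIN (-0.37 on the log2 scale). The coactivator genes Mrtfa and Mrtfb differed on the log2 scale by -0.20 and -0.022 and did not pass, and the immediate early SRF targets Egr1 and Fos had log2 differences of -0.51 (SE 0.31) and -0.17 (SE 0.19) and did not pass. Lima1 lost its call without either control, and Fhl1 without control replicate 5. Of 17 further YAP and TAZ target genes, 3 were higher (17.6%), 1 was lower (5.88%) and 13 did not pass. The median log2 difference was 0.10. Amotl2, a junctional partner of YAP, rose without overlap (2108 with Trp63 siRNA and 1464 with control siRNA, log2 difference 0.52 ± 0.061 SE, limma's adjusted p = 0.000618), Igfbp3 and Gadd45a rose by 0.63 and 0.37 on the log2 scale, and Fjx1 fell by 0.38 on the log2 scale. Without control replicate 5 only 1 of these rose, and without control replicate 6 only 2.

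Of 17 core genes of the Hippo pathway, which restrains YAP and TAZ, 3 rose (17.6%), none fell by limma and 14 did not pass. Over all genes 8.03% were higher and 8.57% lower. The median log2 difference of the 17 was 0.11. At an unadjusted limma p of 0.05, 6 of the 17 were higher and 1 lower, as were 1580 and 2355 of all 12393 genes. Wwtr1, which encodes TAZ, read 869, 1050.1, 982, 1020.2 and 1015 in the Trp63 siRNA arrays, against 649 and 586 in the control siRNA arrays. It rose 1.58-fold without overlap (log2 difference 0.66 ± 0.087 SE, limma's adjusted p = 0.00114) and kept its call under all 17 alternatives, whereas its relative Yap1 did not pass, and the difference between these was not tested. Wwc1, for the Hippo activator KIBRA, rose by 0.47 on the log2 scale (limma's adjusted p = 0.00144). Frmd6, for a FERM protein upstream in the pathway, rose by 0.29 on the log2 scale (limma's adjusted p = 0.0452) and lost its call without either control. The lists share members such as Pdlim7 and Wdr1 and are not independent.

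**Figure D4:**
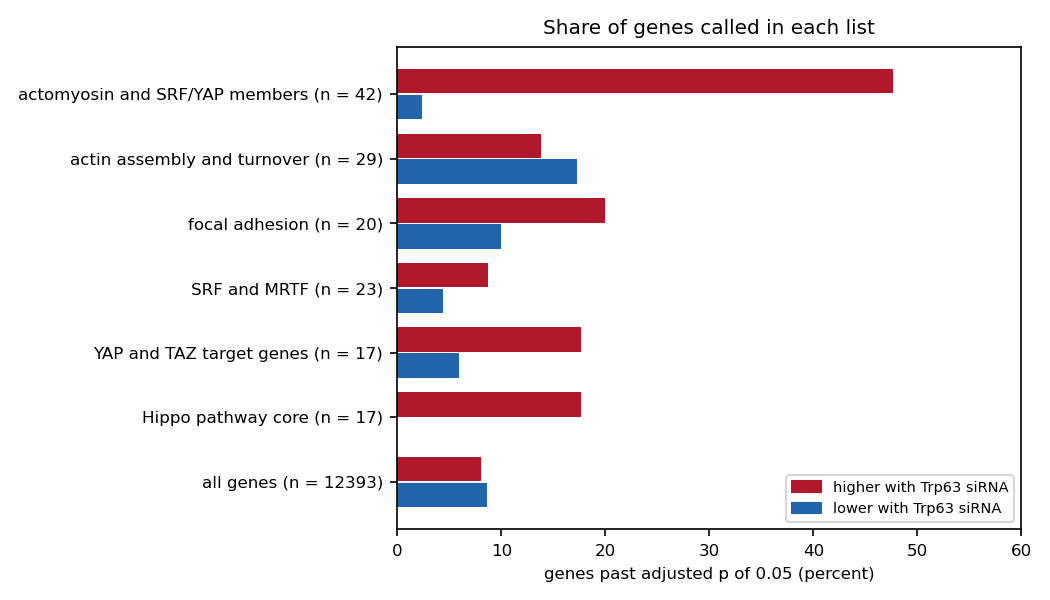
Percentage of genes (x axis, from 0) that were higher (red) or lower (blue) with Trp63 siRNA at an adjusted p of 0.05, for the 42 members, for 5 other lists of related genes and for all 12393 genes. The members stand at 47.6% higher and 2.38% lower, and all genes at 8.03% and 8.57%. Members and lists were chosen with earlier results of these data known.

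Markers of muscle and stromal cells were read beside the muscle actin and SRF genes. For scale, 8.03% of all genes were called higher and 8.57% lower. Of 8 smooth muscle markers 1 rose (Actg2) and 7 did not pass, and 6 of the 8 were below the median probe set. Their summed intensity was 1372 to 1468 in silenced arrays and 1271 to 1335 in controls. Within that sum Actg2 averaged 302 with Trp63 siRNA and 195 with control siRNA. The defining gene Myh11 was at 145 with Trp63 siRNA and 137 with control siRNA. Des was at 167 with Trp63 siRNA and 183 with control siRNA. The brightest was Notch3, at 319 with Trp63 siRNA and 300.1 with control siRNA. Of 10 skeletal muscle markers, all below the median probe set, 1 rose (Tnnc2, 99.0 with Trp63 siRNA and 86.6 with control siRNA) and 9 did not pass. Their sum was 1188 to 1287 in silenced arrays and 1248 to 1304 in controls, and the brightest was Tnni2 (185 with Trp63 siRNA and 187 with control siRNA). Of 10 fibroblast markers 1 rose (Col1a1, log2 difference 0.44) and 9 did not pass, with a sum of 1724 to 2122 in silenced arrays and 1546 to 1849 in controls, led by Col6a2 (282 with Trp63 siRNA and 259 with control siRNA). Col1a1 and Tnnc2 lost their calls without control replicate 6. The part of muscle or stromal cells in the rises was not tested beyond these levels.

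Melanocyte markers were the bright lineage besides keratinocytes and split the arrays across both groups. None of 7 measured passed limma's test, nor reached an unadjusted p of 0.05. Their summed intensity was 11168 and 11857 in silenced replicates 1 and 2 and 9945 in control replicate 5, but 6739 to 7133 in silenced replicates 3, 4 and 7 and 6576 in control replicate 6, led by Dct. With this split as a block in the fit, 23 members rose. Of 8 immune markers, Cd68 rose (log2 difference 0.60), Tyrobp fell (log2 difference -0.20) and 6 did not pass; neither passed without control replicate 6, nor Tyrobp without control replicate 5. For scale, 8.03% of all genes were called higher and 8.57% lower. The sums of the immune markers were 1442 to 1650 in silenced arrays and 1496 to 1578 in controls. Csf1r led them (438 with Trp63 siRNA and 455 with control siRNA). None of 6 endothelial markers passed limma's test. At an unadjusted limma p of 0.05, 2 of them were lower, as were 2355 of all 12393 genes. Their sums were 679 to 749.7 in silenced arrays and 712 to 784 in controls. The brightest was Emcn (177 with Trp63 siRNA and 181 with control siRNA).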

How the data were processed

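Total RNA from 7 samples was hybridised to 1 Affymetrix mouse array each, per the labels' protocols. The values deposited by the authors are linear intensities per probe set; the probe summary, background correction and normalization behind them are not given in the sources used here. Array medians differed by 0.043 on the log2 scale, and array number, not depth, limits precision. The table holds 22690 probe sets, from which 64 for controls were removed. The platform annotation gave 20380 of the rest 1 gene symbol, 691 several and 1555 none. A current RefSeq symbol was found by Entrez identifier for 20351 probe sets. Values were fitted as log2(intensity + 16) with limma 3.58.1 (lmFit and eBayes with a variance trend, R 4.3.3) across 22626 probe sets, with Benjamini-Hochberg adjustment and a threshold of 0.05. Each gene was read at the probe set of highest mean over all arrays. Plots were made in Python 3.11.15 (matplotlib 3.10.9).

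The members and lists were chosen with earlier results of these data known. All members are named, with every array for those that passed with a log2 difference of at least 0.5 and for Srf and Yap1. Of each related list, up to 3 genes that passed in each direction are named by smallest p, and of each marker list of another cell type the brightest gene and any that passed; 1 further related list is not reported here. Krt14, Cdh1, Myh11, Des, Mrtfa, Mrtfb, Egr1, Fos and the multi-gene Myl6 probe sets were named after their values were seen. A total of 17 alternatives changed the normalization, pseudocount (1 or 64), a filter at the 25th percentile, the variance trend, array weights, the rule for several probe sets, blocks for bacterial spike or melanocyte level, and left out each array in turn.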

Additional observations from a re-analysis of the deposited data

Results flagged for a closer look

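Of the genes named with a value in each of the 5 silenced arrays, 78 were tested for a single array far from the other 4, and 6 had one; chance gives about 1 in 20. Among the members, Tpm3 read 2871 in Trp63 siRNA replicate 2, against 3155 to 3216 in the other silenced arrays, and Tmsb10 read 10109 in the same replicate, against 10615 to 10815. In the related lists, Igfbp3 read 504 and Frmd6 795 in replicate 2, against 643 to 704 and 918 to 943 in the other silenced arrays. Replicate 1 was the highest for Cap1, at 2699 against 2504 to 2551, and for Tns1, at 204 against 182 to 186.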

How the results depend on the processing

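Under the 17 alternatives the members that rose numbered 10 to 24 when each array was left out in turn and 18 to 24 otherwise. The lowest count, 10, came without control siRNA replicate 6, and 16 rose without control siRNA replicate 5, so the calls rest heavily on having 2 control arrays. The members that fell numbered 1, or 1 to 2 over the arrays left out. Without Trp63 siRNA replicate 1, Myh9, Actn4, Tmsb4x and Rdx also rose and Mylk also fell. Of the 21 called members, 11 kept their call throughout (Acta1, Acta2, Myl9, Tpm1, Tpm2, Lasp1, Vcl, Zyx, Msn, Ccn1 and Ccn2), and the other 10 lost it without control siRNA replicate 6. Over all probe sets 1771 were higher and 1847 lower, and leaving out arrays gave 776 to 2326 and 598 to 3176. The lower count was 2823 with array weights and 2895 with the melanocyte level as a block. Why these counts moved was not tested.

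Signs turned for genes near 0 on the log2 scale, none of which was called except Actb. Over the arrays left out, the difference ran from -0.023 to 0.068 for Actg1, -0.0028 to 0.042 for Tpm3, -0.10 to 0.021 for Tpm4, -0.17 to 0.010 for Cnn1, -0.037 to 0.034 for Tagln2, -0.031 to 0.038 for Tmsb10, -0.061 to 0.087 for Rnd3, -0.078 to 0.0030 for Srf and -0.074 to 0.094 for Yap1. Among markers it ran from -0.033 to 0.0068 for Tnni2, -0.095 to 0.34 for Col6a2, -0.32 to 0.29 for Dct and -0.097 to 0.017 for Emcn. With the mean of a gene's probe sets the difference was -0.13 for Actb, 0.0049 for Mylk, 0.058 for Tagln2, -0.034 for Tmsb10 and 0.067 for Rnd3. Median centring gave 0.015 for Tagln2, 0.0046 for Rnd3, 0.0042 for Tnni2 and 0.0039 for Dct, and quantile normalization gave -0.0083 for Tmsb10 and 0.0085 for Tnni2. Array weights gave 0.086 for Rnd3. The spike level as a block gave 0.0077 for Tagln2 and 0.011 for Dct, and the melanocyte level as a block -0.0022 for Tmsb10 and 0.064 for Dct. No paired analysis was possible because the 2 groups share no replicate number.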
